A study of Homo sapiens with 24 samples.

Results

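Wnt/beta-catenin feedback genes are genes that beta-catenin switches on and whose products act back on the Wnt pathway. The list followed here had 10 members, RNF43, ZNRF3, AXIN2, LGR5, NKD1, DKK1, TCF7, SP5, APCDD1 and NOTUM, and was matched by gene name to the rows of the count table. The table held 9 of the 10 among its 18915 genes, and APCDD1 is not analysed here. All 9 passed the filter on low counts, as did 12685 genes in all. The list was drawn up knowing that RNF43 and DKK1 fall strongly in these cells. RNF43 was taken as chosen on bortezomib against vehicle, and DKK1 on nelfinavir against vehicle. These contrasts are an assumption, because the basis of the choice is not stated. Their values were therefore tested only in the 2 comparisons that hold none of the DMSO, bortezomib or nelfinavir libraries. If other libraries also entered the choice, the tests of RNF43 and DKK1 are not free of it. In the other comparisons they were described without a test and left out of the counts, so that 7 members were open to a test.

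The RNA came from HepG2 cells, a human liver cancer line of hepatoblastoma origin that carries a shortened, stabilised beta-catenin. Cells were kept for 10 h in medium with bortezomib at 50 nM, nelfinavir at 20 µM, ISRIB at 50 nM or only the vehicle, DMSO. In the remaining conditions bortezomib was combined with nelfinavir or with ISRIB at the same doses. Each of the 6 conditions was represented by 4 biological replicates, giving 24 3′ mRNA-Seq libraries. Bortezomib inhibits the proteasome, nelfinavir is an HIV protease inhibitor that raises phosphorylation of eIF2α, and ISRIB makes the translation initiation machinery insensitive to that phosphorylation. A single cell line and 1 treatment time were profiled, and whether the replicates came from separate days is not given in the sources used here.

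In the canonical Wnt pathway, a cytoplasmic destruction complex marks beta-catenin for removal by the proteasome, and a Wnt ligand bound to its Frizzled and LRP receptors halts that complex. Beta-catenin then enters the nucleus, binds TCF/LEF proteins on DNA and turns on target genes, several of which encode brakes on the pathway itself. In the liver these genes are best known from the hepatocytes around the central vein. In HepG2 cells they are transcribed without added ligand, because the shortened beta-catenin lacks the residues at which it is marked for removal.

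Promoter sequences were available for 4 of the 9 measured members, RNF43, DKK1, TCF7 and SP5. They come from RefSeq (GRCh38.p14) and span 250 bases before to 50 bases after the transcription start. The windows of SP5, DKK1 and RNF43 are shown because these genes reached the lowest levels relative to vehicle. Capitals mark the TCF/LEF core letters CTTTGAT or CTTTGAA, searched on both strands, so that a match on the opposite strand reads TTCAAAG here. The windows lie at chr2:170715087-170715386 on the plus strand for SP5, chr10:52314031-52314330 on the plus strand for DKK1 and chr17:58417485-58417784 on the minus strand for RNF43.
SP5: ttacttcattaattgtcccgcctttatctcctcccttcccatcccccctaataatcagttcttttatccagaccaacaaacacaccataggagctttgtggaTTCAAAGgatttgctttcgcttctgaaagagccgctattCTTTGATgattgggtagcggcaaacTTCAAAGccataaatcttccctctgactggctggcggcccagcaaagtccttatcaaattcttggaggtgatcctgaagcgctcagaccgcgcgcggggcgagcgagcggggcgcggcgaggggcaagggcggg
DKK1: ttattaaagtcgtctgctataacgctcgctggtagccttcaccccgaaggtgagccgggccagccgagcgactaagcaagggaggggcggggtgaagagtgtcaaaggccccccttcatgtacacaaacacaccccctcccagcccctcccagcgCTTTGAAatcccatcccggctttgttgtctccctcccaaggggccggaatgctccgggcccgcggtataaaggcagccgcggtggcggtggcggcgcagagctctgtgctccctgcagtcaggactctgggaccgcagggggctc
RNF43: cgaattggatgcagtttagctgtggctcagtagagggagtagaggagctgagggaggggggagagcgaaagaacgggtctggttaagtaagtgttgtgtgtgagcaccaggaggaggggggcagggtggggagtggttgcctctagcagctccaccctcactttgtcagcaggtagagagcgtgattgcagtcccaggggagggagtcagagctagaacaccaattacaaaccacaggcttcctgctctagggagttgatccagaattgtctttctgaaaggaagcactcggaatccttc
SP5 held 3 matches, beginning 148, 109 and 84 bases before the start (-148, -109 and -84). DKK1 held 1, at -95, and neither the 2 windows of RNF43 nor the 2 of TCF7 held any. Of the 35116 promoter windows in the table, 6.86% held at least 1 match, 0.399% held at least 2, and 9 windows (0.0256%) held at least 3. The letters TGATGNAAT, bound by dimers of C/EBP and ATF4, were in 0.991% of all windows and in none of these 6. A match describes letters only, and binding was not measured here.

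Levels are given as counts per 1000000 counts of a library after TMM scaling (CPM). In this 3′ assay the count of a gene does not grow with its length. Totals ran from 5154533 to 6943164 counts per library, and the 9 genes together had between 1853 (LGR5) and 19134 (SP5) counts over the 24 libraries. The hepatocyte markers ALB, AFP, APOA1, APOB, TTR, SERPINA1, HNF4A and GPC3 were counted in every library, from 1561 to 3530 CPM for ALB and from 6.13 to 32.1 CPM for GPC3. Of the markers of other cells, COL1A1 had at most 5 and COL3A1 at most 3 counts in a library, ACTA2 lay between 26.4 and 105 CPM, and PTPRC and PECAM1 were not analysed here. Counts on mitochondrially encoded genes took 21.5% ± 1.32 of the total in DMSO, 21.9% ± 1.60 with ISRIB and 20.5% ± 1.66 with nelfinavir (SD, n = 4). The share was 33.8% ± 1.20 when bortezomib was given alone, 27.2% ± 2.26 when nelfinavir was added to it and 36.1% ± 3.13, the highest, when ISRIB was added. The part of this share in the results below was not tested beyond removing those genes before scaling. In bulk RNA, fewer cells that express a gene and less RNA per cell cannot be told apart.

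After removal of the condition means, 3 libraries stood apart on the first component of the remaining variation, which held 34.5% of it over 5909 genes. They were replicates 3 and 4 of bortezomib with nelfinavir and replicate 3 of bortezomib with ISRIB, with scores from 12.8 to 20.5 against -16.1 to 6.42 in the other 21. The bortezomib with nelfinavir group thus split into 2 libraries at each end. Mitochondrial shares were 24.9% and 25.6% in its replicates 3 and 4 and 28.5% and 29.6% in the others. Where a result of a member named below moved most with these libraries, its value without them is also given, an alternative chosen after seeing the data.

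**Figure D1:**
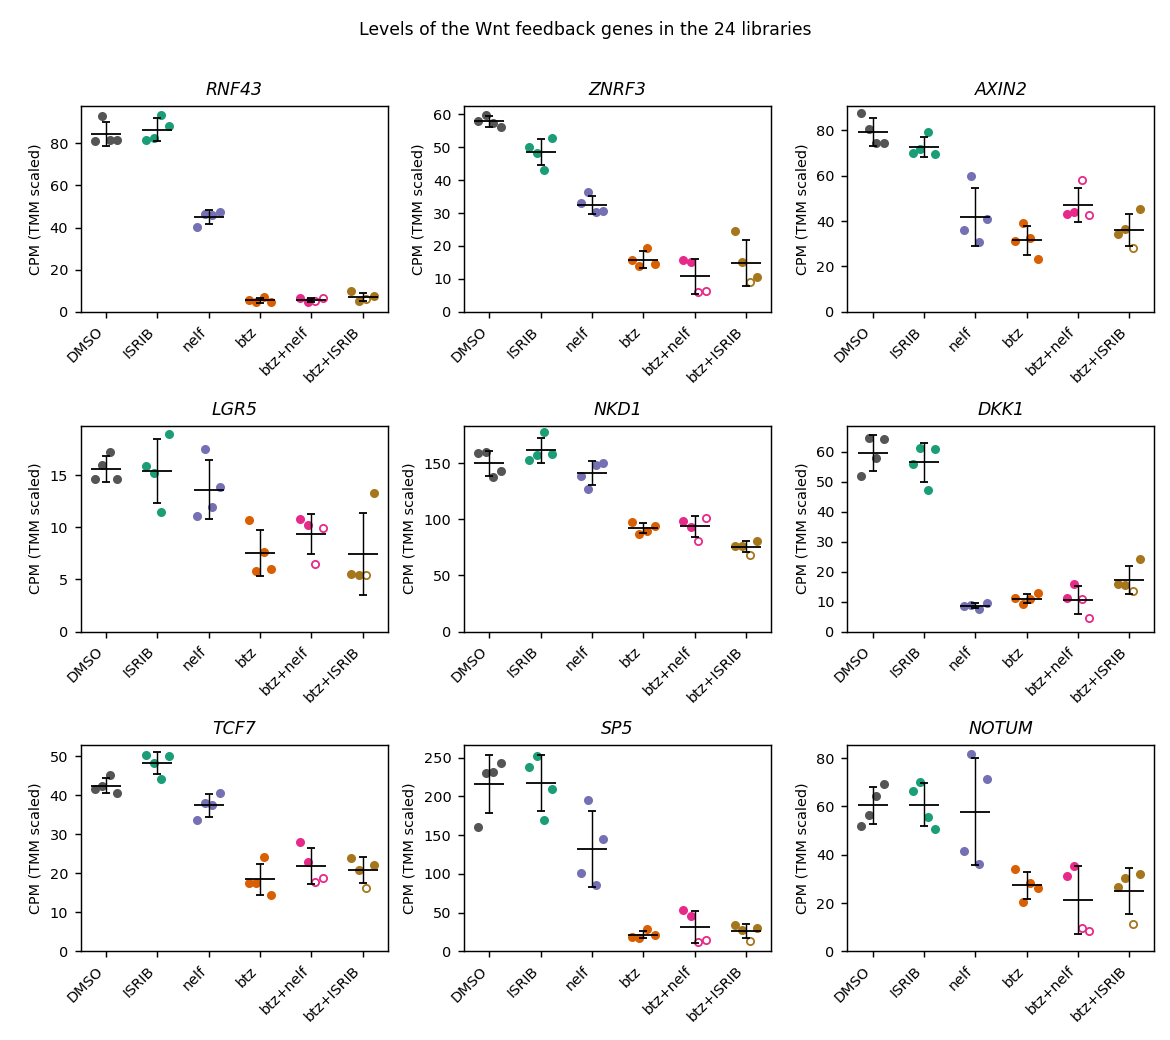
CPM (linear axes from 0) of the 9 measured genes in every library, by condition, where nelf is nelfinavir and btz is bortezomib. Points are single libraries, open points the 3 libraries that stand apart, and bars the mean with its SD (n = 4). All 4 bortezomib libraries lie below all 4 DMSO libraries in each panel.

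RNF43 and ZNRF3, paired transmembrane ubiquitin ligases that take Frizzled receptors off the cell surface, both reached low levels with bortezomib. RNF43 (GRCh37 chr17:56431037-56494956, minus strand) stood at 81.0, 93.1, 81.5 and 81.7 CPM in the 4 DMSO libraries. With bortezomib it was at 5.56, 4.46, 7.18 and 4.54 CPM. The groups were far apart, and the bortezomib mean was 6.45% of the DMSO mean, a difference of -3.95 ± 0.16 on the log2 scale (SE, n = 4 per group) on which the gene was chosen. The 4 nelfinavir libraries read 40.3, 46.2, 45.9 and 47.5 CPM, between the other groups and overlapping neither. In bortezomib with nelfinavir the values were 6.34, 4.54, 5.30 and 6.57 CPM, within the spread of bortezomib alone.

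A comparison open to a test for RNF43 was bortezomib with ISRIB against ISRIB. ISRIB alone left 81.7, 82.3, 93.3 and 88.1 CPM, and the combination 9.80, 5.24, 5.90 and 7.41 CPM. No library of the combination came near the ISRIB libraries. RNF43 was 12.2-fold lower, with a log2 difference of -3.61 ± 0.15 and an adjusted p of 1.11e-19 (edgeR, quasi-likelihood test, Benjamini-Hochberg adjustment over all genes tested). Only 109 of the 12685 genes had a lower log2 difference in that comparison. The 3 bortezomib conditions overlapped each other in RNF43, at means of 5.44 to 7.08 CPM and 20 to 44 counts per library. In the other comparison open to a test, bortezomib with nelfinavir against bortezomib with ISRIB, RNF43 differed by -0.30 ± 0.19 and was not called (edgeR adjusted p = 0.270).

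ZNRF3 (GRCh37 chr22:29279560-29453476, plus strand) was also lowest in the bortezomib conditions, at smaller distances. It was at 58.0, 59.9, 57.4 and 56.1 CPM in DMSO. Bortezomib left 15.6, 14, 19.4 and 14.5 CPM. All bortezomib libraries lay below all DMSO libraries, a log2 difference of -1.87 ± 0.22 (edgeR adjusted p = 7.20e-09). Nelfinavir alone gave 33.1, 36.3, 30.2 and 30.5 CPM, again apart from DMSO, at -0.83 ± 0.20 (edgeR adjusted p = 0.00210). The ISRIB libraries, at 50.2, 48.2, 43.2 and 52.8 CPM, also lay below those of DMSO without overlap, but the difference of -0.25 ± 0.19 did not pass the test (edgeR adjusted p = 1). In bortezomib with nelfinavir, ZNRF3 split with the libraries that stand apart, at 15.9 and 15 CPM in replicates 1 and 2 and 6.09 and 6.19 CPM in replicates 3 and 4.

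LGR5, the receptor for R-spondins, which shield Frizzled from RNF43 and ZNRF3, was the least counted member, with 25 to 154 counts per library. LGR5 (GRCh37 chr12:71833578-71980090, plus strand) ran from 14.6 to 17.2 CPM in DMSO, 11.4 to 19.0 in ISRIB and 11.1 to 17.6 in nelfinavir, and these ranges overlapped. Bortezomib left 10.7, 5.82, 7.60 and 6.05 CPM, all below DMSO, at -1.05 ± 0.24 on the log2 scale (edgeR adjusted p = 0.000470). In bortezomib with ISRIB, 3 libraries read 5.57, 5.44 and 5.47 CPM and replicate 4 read 13.3 CPM, which lies within the ISRIB range. The difference from ISRIB was -1.07 ± 0.25 (edgeR adjusted p = 0.000453).

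AXIN2, a scaffold of the destruction complex and the most widely used readout of beta-catenin activity, responded to bortezomib in a way that depended on nelfinavir. AXIN2 (GRCh37 chr17:63524681-63557766, minus strand) was at 87.6, 80.4, 74.3 and 74.4 CPM in DMSO and at 31.4, 39.0, 32.5 and 23.3 CPM in bortezomib. The groups did not overlap, with a log2 difference of -1.32 ± 0.16 (edgeR adjusted p = 2.16e-08). Nelfinavir alone left 36.0, 59.8, 30.6 and 40.8 CPM, also below every DMSO library, at -0.92 ± 0.15 (edgeR adjusted p = 2.96e-05). In bortezomib with nelfinavir, however, AXIN2 stood at 42.9, 44.1, 58.2 and 42.6 CPM. These values lay above all 4 libraries of bortezomib alone, by 0.57 ± 0.17 on the log2 scale (edgeR adjusted p = 0.00976), and overlapped those of nelfinavir alone.

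The interaction, which is the log2 change from nelfinavir on top of bortezomib less the log2 change from nelfinavir on top of vehicle, was 1.49 ± 0.23 for AXIN2 on the log2 scale (edgeR adjusted p = 9.61e-06). Without the 3 libraries that stand apart it was 1.39 ± 0.22 (edgeR adjusted p = 8.84e-06), while the rise over bortezomib was 0.47 ± 0.18 and no longer passed (edgeR adjusted p = 0.0552). Against nelfinavir alone, the combination differed by 0.17 ± 0.16 (edgeR adjusted p = 0.374, 95% interval -0.16 to 0.49), a sign that turned to -0.34 with library totals alone and was not called there (edgeR adjusted p = 0.0574). Without nelfinavir replicate 2, at 59.8 CPM, this difference became 0.39 and passed (edgeR adjusted p = 0.0296). In bortezomib with ISRIB, AXIN2 was at 34.3, 36.4, 28 and 45.2 CPM, overlapping bortezomib alone.

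NKD1, which binds Dishevelled and dampens Wnt signalling, had the smallest difference of the 9 between bortezomib and DMSO. NKD1 (GRCh37 chr16:50582307-50683160, plus strand) was at 159, 160.0, 137 and 143 CPM in DMSO and 97.5, 87.1, 89.3 and 94.4 CPM in bortezomib. The groups were apart by -0.70 ± 0.09 on the log2 scale (edgeR adjusted p = 4.26e-08). Nelfinavir, at 138, 127, 148 and 150.3 CPM, overlapped DMSO and differed by -0.09 ± 0.09 (edgeR adjusted p = 0.564, 95% interval -0.26 to 0.09).

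Bortezomib with ISRIB gave the lowest NKD1 levels of the 6 conditions, 76.6, 76.0, 68.6 and 80.7 CPM. All 4 lay below bortezomib alone, by -0.29 ± 0.09 (edgeR adjusted p = 0.0355), and below bortezomib with nelfinavir, where NKD1 was 0.31 ± 0.09 higher (edgeR adjusted p = 0.0114). The fall against bortezomib alone missed the threshold without the 3 libraries that stand apart (-0.25, edgeR adjusted p = 0.0606) and without replicate 1, 2 or 3 of bortezomib with ISRIB or replicate 1 or 4 of bortezomib, at edgeR adjusted p from 0.0564 to 0.0985. Against ISRIB alone, at 153, 157, 178 and 158 CPM, the difference was -1.10 ± 0.09 (edgeR adjusted p = 3.43e-12).

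DKK1 and NOTUM encode secreted brakes, DKK1 by blocking the LRP5 and LRP6 co-receptors and NOTUM by removing the lipid that Wnt ligands need. DKK1 (GRCh37 chr10:54074041-54077802, plus strand) was at 51.9, 64.6, 57.9 and 64.5 CPM in DMSO and at 8.48, 8.78, 7.66 and 9.61 CPM in nelfinavir, the contrast taken as the basis of its choice. Nelfinavir left it at 14.5% of DMSO, -2.79 ± 0.19 on the log2 scale, and 10 of the 12685 genes had a lower difference. DKK1 was the only member whose mean was lowest with nelfinavir alone.

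With bortezomib DKK1 read 11.1, 9.31, 10.8 and 13 CPM, below all DMSO libraries, and with both drugs 11.2, 15.9, 10.8 and 4.69 CPM. The values with both drugs overlapped those of each drug alone. The described interaction was 2.72 ± 0.30 on the log2 scale, from -2.79 for nelfinavir added to vehicle and -0.07 for nelfinavir added to bortezomib. The sign of the latter turned to 0.30 without the 3 libraries that stand apart. ISRIB left 56.1, 61.3, 47.5 and 61.1 CPM.

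Bortezomib with ISRIB gave 16, 15.5, 13.7 and 24.2 CPM of DKK1, above all 4 libraries of bortezomib alone. Against ISRIB this was a difference of -1.71 ± 0.19 (edgeR adjusted p = 2.40e-09). DKK1 was lower in bortezomib with nelfinavir than in bortezomib with ISRIB by -0.71 ± 0.22 (edgeR adjusted p = 0.0137). That call rested on single libraries, since it was lost without replicate 4 of bortezomib with nelfinavir (-0.42, edgeR adjusted p = 0.101), without replicate 4 of bortezomib with ISRIB (-0.48, edgeR adjusted p = 0.114) and without the 3 libraries that stand apart (-0.43, edgeR adjusted p = 0.160).

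NOTUM (GRCh37 chr17:79910383-79919716, minus strand) was at 51.7, 56.5, 64.4 and 69.1 CPM in DMSO and 34.2, 20.4, 28.5 and 26.1 CPM in bortezomib. It fell by 1.15 ± 0.30 on the log2 scale (edgeR adjusted p = 0.00147). Nelfinavir spread it widely, at 41.7, 81.6, 36.3 and 71.4 CPM, with values on either side of the DMSO range and a difference of -0.07 ± 0.28 (edgeR adjusted p = 0.919, 95% interval -0.63 to 0.50). In bortezomib with nelfinavir, replicates 1 and 2 were at 31.3 and 35.4 CPM and replicates 3 and 4 at 9.63 and 8.45 CPM.

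TCF7 and SP5 act in the nucleus, TCF7 as a DNA-binding partner of beta-catenin and SP5 as a zinc-finger factor that restrains Wnt target genes. SP5 (GRCh37 chr2:171571847-171574588, plus strand), whose promoter window holds 3 TCF/LEF matches, was the most counted of the 9. It was at 161, 229.9, 231 and 243 CPM in DMSO and 19.2, 17.6, 28.5 and 21.8 CPM in bortezomib. SP5 was 9.92-fold lower, at -3.31 ± 0.30 on the log2 scale (edgeR adjusted p = 4.26e-11). Nelfinavir alone gave 101, 196, 86.0 and 146 CPM, overlapping DMSO, and the difference of -0.71 ± 0.26 passed narrowly (edgeR adjusted p = 0.0487). It missed the threshold in the DESeq2 test (adjusted p = 0.172) and without any of replicates 2, 3 or 4 of DMSO or 1, 3 or 4 of nelfinavir, at edgeR adjusted p from 0.0711 to 0.191.

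SP5 also split in bortezomib with nelfinavir, at 53.3 and 45.6 CPM in replicates 1 and 2 and 12.8 and 15.2 CPM in replicates 3 and 4. With all libraries, the group differed from bortezomib alone by 0.52 ± 0.32 (edgeR adjusted p = 0.228). Without the 3 libraries that stand apart, SP5 was higher by 1.20 ± 0.23 (edgeR adjusted p = 0.000143). The nelfinavir by bortezomib interaction of SP5 was 1.24 ± 0.41 with all libraries (edgeR adjusted p = 0.0309) and 1.91 ± 0.28 without the 3 (edgeR adjusted p = 1.39e-06). It missed the threshold in the DESeq2 test (adjusted p = 0.0736) and without replicate 1 or 2 of bortezomib with nelfinavir, 3 or 4 of DMSO, or 1 or 3 of nelfinavir, at edgeR adjusted p from 0.0505 to 0.104.

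TCF7 (GRCh37 chr5:133450372-133487556, plus strand) ran from 40.7 to 45.1 CPM in DMSO, 44.2 to 50.3 in ISRIB and 33.6 to 40.5 in nelfinavir. Every nelfinavir library lay below every DMSO library, although the difference of -0.18 ± 0.13 did not pass (edgeR adjusted p = 0.404). Bortezomib left 17.5, 17.6, 24.1 and 14.5 CPM, a fall of 1.20 ± 0.15 on the log2 scale (edgeR adjusted p = 1.80e-08). The 3′ end of TCF7 overlaps SKP1 on the opposite strand, which had 15988 counts against 5150 for TCF7. Since the strand setting of the counting is not given in the sources used here, reads of the overlap cannot be assigned with certainty.

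Counted together, 7 of the 7 members open to a test were lower with bortezomib than with DMSO, where 25.8% of all genes tested were called lower and 27.6% higher. The 4 bortezomib libraries lay below all 4 of DMSO for these 7, and 24.4% of all genes did so. The median log2 difference of the 7 was -1.20, against 0.00 for all genes tested. The members were chosen with earlier results of these data known, so the counts of members here are not free of that choice. With bortezomib and ISRIB against ISRIB, 9 of 9 members were called lower against 25.6% of all genes lower and 29.1% higher, and 8 did not overlap, LGR5 being the exception, against 23.5% of all genes. The median of the 9 was -1.28 and that of all genes 0.02, and the 9 include RNF43 and DKK1, open there only under the choice assumed above. When libraries were scaled by their totals alone, the median of all genes moved by -0.50 in the former comparison and -0.54 in the latter. The members moved with it, and their smallest differences were then -1.20 for NKD1 and -1.56 for AXIN2. Such scaling moves all genes by nearly the same amount, so these values are no separate check of the calls.

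When bortezomib was added to nelfinavir, 5 of 7 members were lower and 0 higher, against 28.4% and 28.7% of all genes. ZNRF3 differed by -1.61 ± 0.23, NKD1 by -0.59 ± 0.09, TCF7 by -0.77 ± 0.14, SP5 by -2.07 ± 0.29 and NOTUM by -1.47 ± 0.30 on the log2 scale (edgeR adjusted p from 2.36e-07 to 0.000121). The ZNRF3, SP5 and NOTUM differences were -1.11, -1.45 and -0.83 without the 3 libraries that stand apart, and all passed. LGR5 lay just outside the threshold at -0.54 ± 0.24 (edgeR adjusted p = 0.0512) and passed in 7 of 9 alternatives, at -1.05 with library totals alone and -0.57 in the DESeq2 test (adjusted p = 0.0332), but not without the 3 libraries that stand apart (-0.41, edgeR adjusted p = 0.214). AXIN2 was not called. RNF43 was described at -2.97 ± 0.16 and DKK1 at 0.28 ± 0.22, which became -0.23 with library totals alone. These comparisons share libraries with others above, so their values stand side by side and are not independent.

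Nelfinavir against DMSO gave 3 of 7 members lower, ZNRF3, AXIN2 and SP5, against 8.84% of all genes lower and 10.4% higher, and the median of the 7 was -0.20, against 0.01 for all genes. ISRIB against DMSO gave 0 of 7 by edgeR's quasi-likelihood test, and 0% of all genes in either direction, with 703 genes at an unadjusted p under 0.05. The DESeq2 test, which gave an adjusted p for 4078 genes there, called 19. AXIN2, NKD1, SP5 and NOTUM were not among them. ZNRF3, LGR5 and TCF7 were given no adjusted p in that test and so could not be called. The log2 differences of the 9 members with ISRIB lay between -0.25 and 0.18.

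Added to bortezomib, nelfinavir raised 1 of 7 members, AXIN2, where 15.6% of all genes were called higher and 13.4% lower. ZNRF3 differed by -0.58 ± 0.25 (edgeR adjusted p = 0.0785), and by -0.03 ± 0.20 without the 3 libraries that stand apart (edgeR adjusted p = 0.943). Without them, TCF7 was called higher (0.48 ± 0.16, edgeR adjusted p = 0.0280), as was SP5. NOTUM went from -0.38 ± 0.32 to 0.30 ± 0.23 and was called in neither (edgeR adjusted p = 0.392 and 0.360). Added to bortezomib, ISRIB lowered 1 of 7, NKD1, where 5.34% of all genes were called lower and 6.91% higher. Between the co-treatments, 2 of 9 members were called, NKD1 higher and DKK1 lower with nelfinavir, where 13.2% of all genes were called higher and 11.3% lower. These shares lie near the background of each comparison, or rest on 1 gene. Between the co-treatments, leaving out the 3 libraries that stand apart lost the DKK1 call. SP5 was then called higher with nelfinavir (0.70 ± 0.24, edgeR adjusted p = 0.0374).

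**Figure D2:**
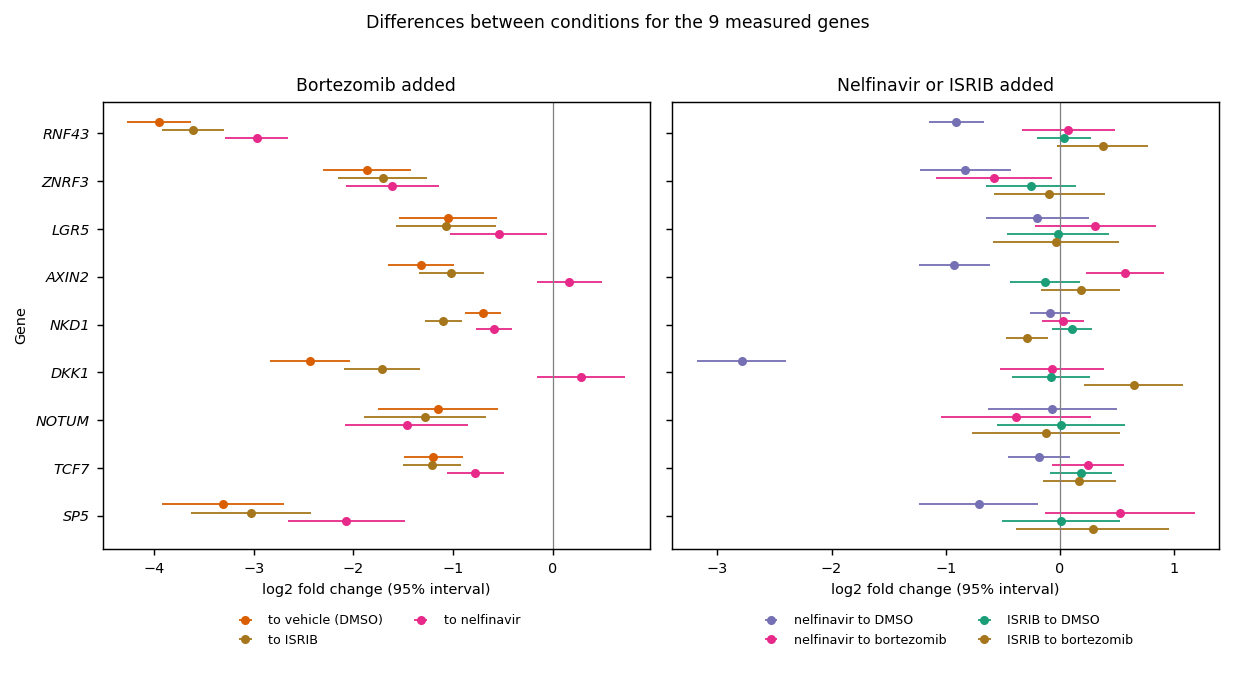
Log2 fold changes (points) with 95% intervals (lines) of the 9 genes when bortezomib was added to vehicle, ISRIB or nelfinavir (left) and when nelfinavir or ISRIB was added to vehicle or bortezomib (right). Most genes lie left of 0 in every comparison on the left, while AXIN2 (0.17) and DKK1 (0.28) do not when bortezomib was added to nelfinavir, although both are below 0 with library totals alone (-0.34 and -0.23).

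The nelfinavir by bortezomib interaction was called for 2 of 7 members, AXIN2 and SP5, both higher, where 9.74% of all genes were called higher and 10.0% lower. RNF43 was described at 0.98 ± 0.23, from -0.91 for nelfinavir added to vehicle and 0.08 for nelfinavir added to bortezomib. Without the 3 libraries that stand apart, ZNRF3 (0.80, edgeR adjusted p = 0.0143) and TCF7 (0.66, edgeR adjusted p = 0.0137) also passed. The ISRIB by bortezomib interaction was called for 0 of 7 members by edgeR, where 2.93% of all genes were called higher and 1.89% lower. Of the 7, NKD1 was nearest to the threshold at -0.40 ± 0.13 (unadjusted p = 0.00354 and adjusted p = 0.0615 by edgeR), and the DESeq2 test called 1 member, NKD1 (adjusted p = 0.0169).

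The spread within conditions differed between members. SP5, NOTUM and ZNRF3 were 3.54-, 3.69- and 2.51-fold higher in replicates 1 and 2 than in replicates 3 and 4 of bortezomib with nelfinavir. In bortezomib with ISRIB, the same genes were 2.19-, 2.67- and 1.86-fold higher in the other 3 libraries than in replicate 3. RNF43 and NKD1 did not show this split in bortezomib with nelfinavir, at ratios of 0.917 and 1.05. The library with the lowest SP5 was also the lowest for ZNRF3 in 5 of 6 conditions, for DKK1 in 5, for NOTUM in 4 and for RNF43 in 2. SP5 was also low in the libraries at the high end of the residual component where no library stood apart, as in nelfinavir replicate 3. The part of culture, RNA quality or library preparation in this spread was not tested.

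**Figure D3:**
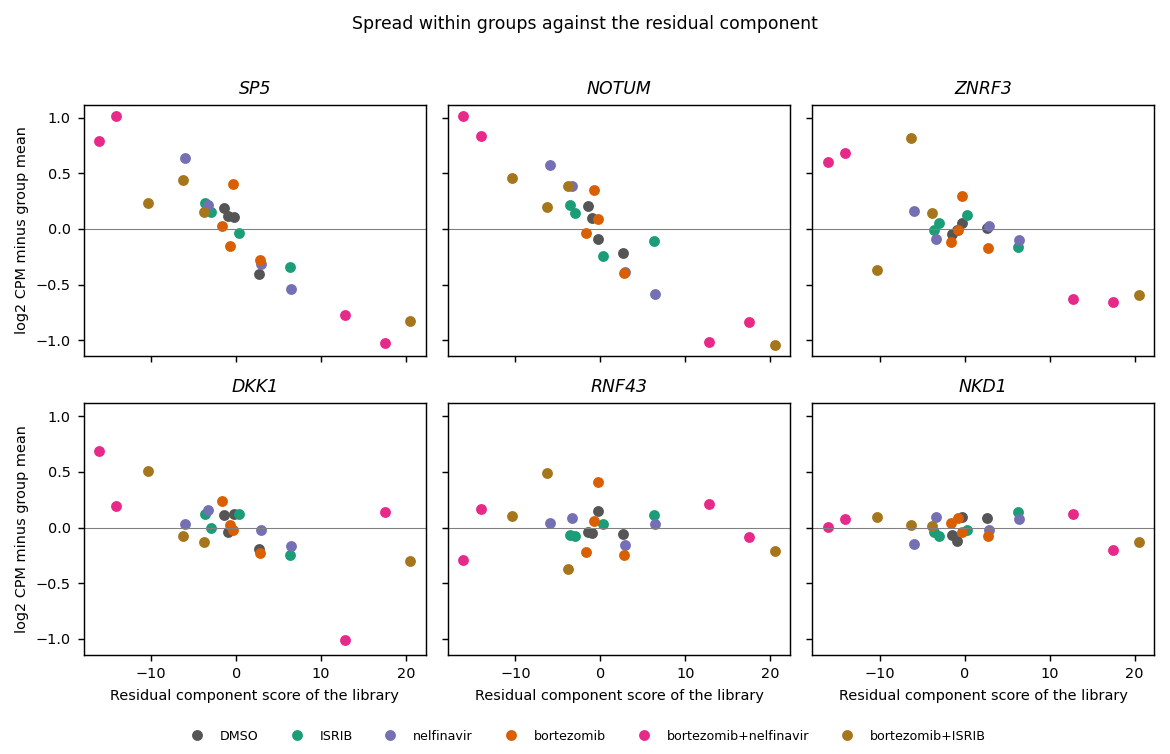
Log2 CPM of 6 genes minus the mean of their condition (vertical axis) against the score of each of the 24 libraries on the residual component (horizontal axis, no unit). SP5 and NOTUM descend across the component, whereas RNF43 and NKD1 lie near 0 in the 3 libraries with scores of 12.8 to 20.5.

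By condition, the members fell into a common order with few exceptions. DMSO and ISRIB held the highest levels for all 9 and overlapped for 8. ZNRF3 was the exception, lower with ISRIB without overlap, as were 4.52% of all genes tested. Nelfinavir came next for RNF43, ZNRF3, LGR5, NKD1, TCF7, SP5 and NOTUM, and its libraries did not overlap those of the condition next below it. For LGR5, replicate 4 of bortezomib with ISRIB, at 13.3 CPM, lay within the nelfinavir range of 11.1 to 17.6 CPM. The share of all genes without overlap at this step was not computed, so it is a description only. For AXIN2 nelfinavir came just below bortezomib with nelfinavir, which it overlapped, and for DKK1 it came last. The conditions with bortezomib took the lowest places otherwise, and most of them overlapped each other. The exceptions were AXIN2, higher in bortezomib with nelfinavir than in bortezomib, NKD1, lower in bortezomib with ISRIB than in the other bortezomib conditions, and DKK1, higher in bortezomib with ISRIB than in bortezomib.

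Over the 24 libraries, the genes most like RNF43 in log2 CPM among 7891 genes were HMGA2 (r = 0.985), SPTLC3 (r = 0.983), VIL1 (r = 0.982), BIRC5 (r = 0.980) and STK39 (r = 0.979). Their mean levels were between 4.27 CPM (SPTLC3) and 68.7 CPM (BIRC5) in bortezomib, and between 43.2 CPM (SPTLC3) and 322 CPM (HMGA2) in DMSO. Of the members, TCF7 (r = 0.952) and SP5 (r = 0.947) were nearest to RNF43, and DKK1 (r = 0.681) was farthest. The genes most like DKK1 were GMNN (r = 0.954), PCNA (r = 0.942), FAM111B (r = 0.935), SLC2A3 (r = 0.930) and CDCA7 (r = 0.916), of which PCNA serves DNA replication. FAM111B was at 90.6 CPM in DMSO, 11.5 in nelfinavir, 22.4 in bortezomib and 36.1 in bortezomib with ISRIB. The nearest member was AXIN2 (r = 0.774). The points share condition and library, so these correlations are descriptions.

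Other genes of the pathway were followed in 6 lists of 114 genes by role, of which 92 were in the table and 58 were tested. With bortezomib against DMSO, 24 of the 58 were lower and 16 higher (41.4% and 27.6%), where 25.8% and 27.6% of all genes were. Other target genes of beta-catenin were mostly lower, 9 of 11 with 0 higher and a median log2 difference of -1.24. BAMBI, a decoy receptor of the TGF-beta family, was at 56.1 ± 4.99 CPM in DMSO and 10.5 ± 2.04 in bortezomib (-2.41 ± 0.18). TNFRSF19 differed by -2.58 ± 0.21, CCND1, which encodes cyclin D1, by -1.87 ± 0.15, and BMP4 by -1.67 ± 0.12 (edgeR adjusted p from 3.32e-13 to 2.54e-12 for the 4 genes).

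Cytoplasmic components ran the other way, with 9 of 17 higher and 2 lower. DVL3, a Dishevelled protein that relays the receptor signal, rose by 1.14 ± 0.09, and CSNK1A1, the kinase that primes beta-catenin in the destruction complex, by 1.03 ± 0.08 (edgeR adjusted p = 1.05e-12 and 1.54e-12). Receptors gave 4 lower and 1 higher of 10, extracellular inhibitors 3 lower of 3, nuclear factors 5 lower and 4 higher of 14, and ligands and their export 1 lower and 2 higher of 3. These lists are short, and the shares of the nuclear factors, 35.7% lower and 28.6% higher, lay near those of all genes. CTNNB1, which encodes beta-catenin and is named for that reason, was at 219.8 ± 10.7 CPM in DMSO, 201 ± 9.14 in nelfinavir and 154 ± 10.5 in bortezomib. It fell by 0.51 ± 0.09 on the log2 scale with bortezomib (edgeR adjusted p = 1.22e-05). Beta-catenin protein was not measured in these data.

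Nelfinavir alone lowered 6 and raised 1 of the 11 other target genes, with TNFRSF19 at -1.23 ± 0.18 (edgeR adjusted p = 4.33e-06), and raised 7 and lowered 1 of the 17 cytoplasmic components, where 8.84% of all genes were lower and 10.4% higher. Added to bortezomib, it raised 7 of 14 nuclear factors, where 15.6% of all genes were higher, among them TCF7L2, a TCF/LEF factor, by 1.15 ± 0.13 (edgeR adjusted p = 2.54e-08). Of the 11 other target genes, 2 were higher and 3 lower, where 13.4% of all genes were lower. CCND1, among the higher, rose from 40.4 ± 8.89 to 98.3 ± 15.9 CPM, by 1.28 ± 0.15 (edgeR adjusted p = 8.95e-08). RNF146, a ubiquitin ligase that removes axin, and the extracellular inhibitor KREMEN1 differed by -1.35 ± 0.25 and -1.22 ± 0.25 (edgeR adjusted p = 0.000114 and 0.000305). They stood at 5.43 ± 2.47 and 5.87 ± 2.78 CPM in bortezomib with nelfinavir. For the nelfinavir by bortezomib interaction, 5 of the 11 other target genes were called higher and 1 lower, with a median of -0.07. Nuclear factors gave 2 higher of 14, and cytoplasmic components 2 higher and 3 lower of 17. Of all genes, 9.74% were higher and 10.0% lower. The interactions of CCND1 (1.99 ± 0.21) and TCF7L2 (1.30 ± 0.17) had the same sign as those of AXIN2 and SP5 (edgeR adjusted p = 1.05e-08 and 1.12e-06). That of RNF146 was -1.52 ± 0.33 (edgeR adjusted p = 0.000937). The interactions of CCND1, TCF7L2 and RNF146 were not examined without the 3 libraries that stand apart.

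With bortezomib and ISRIB against ISRIB, 7 of the 11 other target genes were lower and 0 higher, where 25.6% of all genes were lower and 29.1% higher. BAMBI differed by -2.38 ± 0.19 and TNFRSF19 by -2.65 ± 0.21 (edgeR adjusted p = 1.35e-12 and 2.13e-12). Nuclear factors gave 7 lower and 4 higher of 14, and cytoplasmic components 1 lower and 11 higher of 17. Of the 14, CTNNBIP1, an inhibitor of beta-catenin and TCF binding, differed by -2.05 ± 0.14 (edgeR adjusted p = 4.20e-14). BCL9, a coactivator of beta-catenin and 1 of the 4 higher, rose by 1.48 ± 0.16 (edgeR adjusted p = 1.83e-09). Added to bortezomib, ISRIB raised 4 and lowered 0 of the 11, where 6.91% of all genes were higher and 5.34% lower. With bortezomib added to nelfinavir, 8 of the 11 were lower and 0 higher, where 28.4% of all genes were lower and 28.7% higher. Between the co-treatments, 4 were lower and 1 higher with nelfinavir, where 11.3% of all genes were lower and 13.2% higher.

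**Figure D4:**
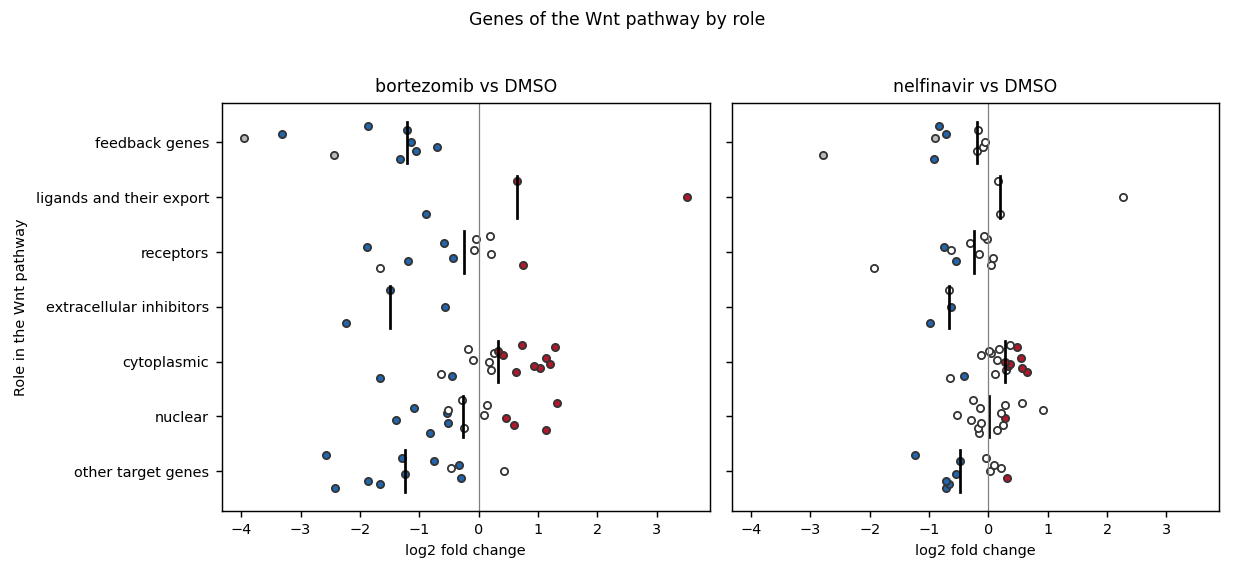
Log2 fold changes of tested Wnt pathway genes by role, for bortezomib against DMSO (left) and nelfinavir against DMSO (right). Each point is a gene, blue where called lower, red where called higher, white where not called and grey for RNF43 and DKK1, which were not tested, and black bars are medians of the tested genes. On the left the feedback genes (median -1.20) and other target genes (-1.24) lie mostly below 0 and the cytoplasmic components (0.33) mostly above.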

How the data were processed

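QuantSeq 3′ mRNA-Seq libraries from 4 biological replicates per condition were sequenced in 1 pool (80 bp single-end reads). The authors trimmed reads with cutadapt 2.8 and ran the nf-core workflow with STAR on hg19. They deposited raw counts, not normalized, for Ensembl GRCh37 genes of the coding, lincRNA and antisense classes. The counting program, its strand setting or a use of molecular identifiers is not given in the sources used here, and counts may not be independent molecules. Genes passing filterByExpr (minimum count 5, total 25) were scaled with TMM and compared by the quasi-likelihood test of edgeR 4.0.16 (R 4.3.3) in 1 model of 24 libraries, where the authors used DESeq2. P-values were adjusted by Benjamini-Hochberg over 12685 genes and called below 0.05 in 10 comparisons. The script was tested on simulated data. Every pair of replicates differed by more than counting noise (chi-square per degree of freedom at least 2.14). Near copies were searched with BLAST 2.17.0, and gene positions came from GENCODE on GRCh37. Besides SKP1 at the TCF7 end, genes on the opposite strand overlapped RNF43, SP5, ZNRF3 and DKK1 (15 to 43 counts each in all libraries) and LGR5 (TSPAN8, 317 counts against 1853), and readthrough models covered AXIN2 and RNF43.

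The members and lists were chosen with earlier results of these data known. All members are named. Other pathway genes that are named come from the 6 smallest p-values of a comparison with more than 2-fold change. Not all genes that meet this rule are named, and the choice among them followed no rule. CTNNB1 was added after its values were seen. Likeness is Pearson's r for the 5 nearest genes with a mean of at least 10 CPM (prior count 2). Alternatives were RLE factors, library totals, mitochondrial genes removed, DESeq2 1.42.0, no filter, the default filter, only the groups compared, a replicate block and each library left out.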

Additional observations from a re-analysis of the deposited data

Results flagged for a closer look

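Within conditions, 4 of the 54 sets of 4 libraries (9 genes in 6 conditions) held a library whose distance to the nearest other exceeded Dixon's 95% critical value, which chance gives in about 1 of 20 sets. RNF43 was highest in DMSO replicate 2, at 93.1 CPM, against 81.7 CPM in the nearest library. AXIN2 was highest in replicate 3 of bortezomib with nelfinavir, at 58.2 CPM against 44.1 CPM. LGR5 was highest in replicate 4 of bortezomib with ISRIB, at 13.3 CPM against 5.57 CPM. SP5 was lowest in DMSO replicate 1, at 161 CPM against 229.9 CPM.

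The effect of nelfinavir differed with and without bortezomib, by the test of the interaction itself, for AXIN2 (1.49 on the log2 scale, edgeR adjusted p = 9.61e-06) and SP5 (1.24, edgeR adjusted p = 0.0309). AXIN2 was lowered by nelfinavir alone in 4 of 4 libraries relative to DMSO and raised in 4 of 4 relative to bortezomib. For SP5 the libraries overlapped in both comparisons.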

How the results depend on the processing

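The count of members called was the same, within 1.5 times, in 152 of 183 recomputations and moved in 31. Leaving out each library in turn gave 7 of 7 for bortezomib against DMSO, 9 of 9 for bortezomib with ISRIB against ISRIB and 0 for ISRIB against DMSO and for the ISRIB interaction throughout. The ranges were 2 to 3 for nelfinavir against DMSO, 1 to 2 and 0 to 1 for nelfinavir and ISRIB added to bortezomib, 5 to 6 for bortezomib added to nelfinavir, 1 to 4 between the co-treatments and 1 to 3 for the nelfinavir interaction. For nelfinavir added to bortezomib (main count 1), the count was 3 with no filter, 2 with the replicate block and 2 without the 3 libraries that stand apart. For ISRIB added to bortezomib (1) it was 0 with no filter, with only the groups compared and without the 3 libraries, and between the co-treatments (2) it was 0 with only the groups compared. The nelfinavir interaction (2) gave 1 with DESeq2 and 4 without the 3 libraries. The ISRIB interaction (0) gave 1, NKD1, with RLE factors, library totals, mitochondrial genes removed, DESeq2 and only the groups compared. DKK1, described without a test, turned from -0.07 to 0.30 for nelfinavir added to bortezomib without the 3 libraries, and from 0.28 to -0.23 for bortezomib added to nelfinavir with library totals. NOTUM, called in neither, turned from -0.38 to 0.30 for nelfinavir added to bortezomib without the 3 libraries. The cause of these moves was not tested. The labels do not say that a replicate number marks a shared culture or day. After removal of condition means, a correlation above 0.1 was found in 23 of the 60 same-numbered pairs (median r = 0.052) and in 42 of the 180 others (median r = -0.026), so the numbers were not taken to pair the samples, and pairing cannot be told from these values. The replicate block added ZNRF3 (-0.61, edgeR adjusted p = 0.0439) for nelfinavir added to bortezomib and LGR5 (-0.55, edgeR adjusted p = 0.0448) for bortezomib added to nelfinavir. LGR5 also passed there with RLE factors, library totals, mitochondrial genes removed, DESeq2, no filter and only the groups compared. Library totals alone called 6266 genes lower and 1490 higher for bortezomib against DMSO, against 3275 and 3498 with TMM. With only the groups compared, all genes called fell from 3669 to 2246 for nelfinavir added to bortezomib, from 1553 to 867 for ISRIB added to bortezomib and from 3098 to 1740 between the co-treatments, and rose from 2441 to 3873 for nelfinavir against DMSO and from 0 to 80 for ISRIB against DMSO, where no filter gave 39. The ISRIB interaction rose from 612 to 1107 genes without the 3 libraries. With 4 libraries and 25 to 54 counts per library for LGR5 in the bortezomib conditions, small differences of that gene were not detectable at this depth.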
